A study of Mus musculus with 4 samples.

Results

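Induced neural stem cells made with 14 factors were compared with primary-derived neural stem cells, each measured on 1 array of total RNA. These are 2 of the 4 arrays of the series, chosen by their labels, iNSC_14F and NSC. The comparison covers all 34958 probe sets, of 45101 on the mouse array, that the platform annotation pairs with one gene. These gave 18194 genes, each read through the probe set with the highest mean log2 signal over the 4 arrays. The other arrays hold mouse embryonic fibroblasts (MEF) and a sample that 13 factors had induced (iNSC_13F), and their signals are given beside the pair. An induced neural stem cell is a cell of another lineage that introduced transcription and signalling factors have turned towards a neural stem cell state. The series title names B lymphocytes and adult liver cells, but neither the starting cell of the iNSC_14F sample nor its factors are in the labels. Both populations were grown in N2 medium on laminin, with EGF at 20 ng/ml and bFGF at 20 ng/ml. Strain, sex, age, passage number and whether the induced cells are 1 clone are not given in the labels. Against the cell type label, the source label calls every sample embryonic stem cells. The pluripotency genes Pou5f1, Nanog and Zfp42 had signals no higher than 34.6 on both arrays of the pair (34.6 and 3.33, 2.54 and 8.77, 0.92 and 6.02 on NSC and iNSC_14F), under the floor described next. Of 17 pluripotency markers with a probe set, 3 others (Fgf4, Esrrb and Klf4) were above that floor on iNSC_14F, 2 of them at least 2-fold higher than on NSC.

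A signal is the linear intensity that MAS5 gives a probe set, and signals of different genes are not set against each other. The floor, 103.91, is the highest over the arrays of the 95th percentile over 86 probe sets of taste, odorant and vomeronasal receptors. Lower signals were set to it before a fold was taken, and a fold against such a signal is a lower bound, written as at least. With 1 array a side no difference has a replicate check, so no SD and no p-value are given, and genes are described by a fixed rule of size. Precision is limited by the number of arrays. The only repeated measurement is within a gene, and 3665 genes had at least 2 probe sets above the floor on both arrays of the pair. The log2 differences of the 2 brightest of these differed by a median of 0.311, with a 95th percentile of 1.54. Probe sets that give bounds were left out of this figure.

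All arrays had a 2% trimmed mean of 500, and the 4 arrays held between 9855 (NSC) and 10562 (MEF) genes above the floor. The hybridization controls, transcripts added at hybridization, were dimmer on the NSC array than on the others. Relative to NSC they were 1.86-fold brighter on iNSC_14F, 2.11-fold on iNSC_13F and 1.85-fold on MEF. Scaling the arrays to these controls lowers every log2 difference between iNSC_14F and NSC by 0.90 for genes above the floor. The poly-A controls, another set of added transcripts, were dimmer on NSC as well and differed more. Relative to NSC they were 2.40-fold brighter on iNSC_14F, 3.49-fold on iNSC_13F and 2.14-fold on MEF. No scaling to the poly-A controls was run. The brightest signal was 73179 on iNSC_14F and 37965 on NSC. The 3' to 5' ratio of the actin controls was 1.65 on iNSC_14F and 1.35 on NSC.

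Neural stem cells divide and can give rise to neurons, astrocytes and oligodendrocytes. In culture EGF and FGF keep them dividing, Notch signalling and its Hes targets hold back differentiation, and Sox transcription factors keep the neural programme on. Hox and Irx homeobox genes record the position along the body axis from which a neural cell came. Cells that sense low oxygen stabilise the HIF transcription factors, which bind a short motif in promoters and enhancers and raise genes for glucose uptake, glycolysis and vessel growth.

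A gene counts as measured when it exceeded the floor on NSC, on iNSC_14F or on both. Of 10813 measured genes, 154 (1.42%) were at least 4-fold higher in iNSC_14F and 1016 (9.4%) were lower by 4-fold or more. At 2-fold, 1832 genes (16.9%) were higher and 2090 (19.3%) were lower, and 6891 genes (63.7%) lay within 2-fold. Of the last group 1072 are bounds under 2-fold, which do not place a gene within 2-fold but are counted there, in the lists as well. By the 2-fold rule, 13 of 15 measured glycolysis enzymes, 30 of 40 other hypoxia-inducible genes and 5 of 6 anterior Hox genes were higher in iNSC_14F. By the same rule 18 of 22 genes of condensin, cohesin and other SMC proteins and 8 of 13 glutamate and GABA receptor genes were lower, and so was the imprinted gene Mest. Among the 13 receptor genes 7 differences are bounds, and members measured through NSC alone could not come out higher. Of 13 anterior Hox genes with a probe set only those 6 were measured, 5 of them through iNSC_14F alone, so these 5 could not come out lower. The median difference over all measured genes was 0.33 on the log2 scale, and -0.48 after scaling to the hybridization controls, so small differences have no settled direction. At 2-fold that scaling left 280 genes higher and 3762 lower of 11445 measured, which is 2.45% and 32.9%. A list's counts under it are given in parentheses, higher first, and read against those shares. A list's other 2-fold counts are read against 16.9% of all genes higher and 19.3% lower.

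The 4-fold split depended on the scaling. Scaled to the hybridization controls, 41 genes were higher and 1967 lower, which is 2.0% of calls higher against 13.2% as deposited. After lowess, 91 were higher and 1288 lower. With the median of each gene's probe sets in place of the brightest one, 91 were higher and 529 lower. Under the 3 other scalings, the centring by gene length and the median of probe sets together, 32 of the 154 higher genes and 461 of the 1016 lower genes were called every time.

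**Figure D1:**
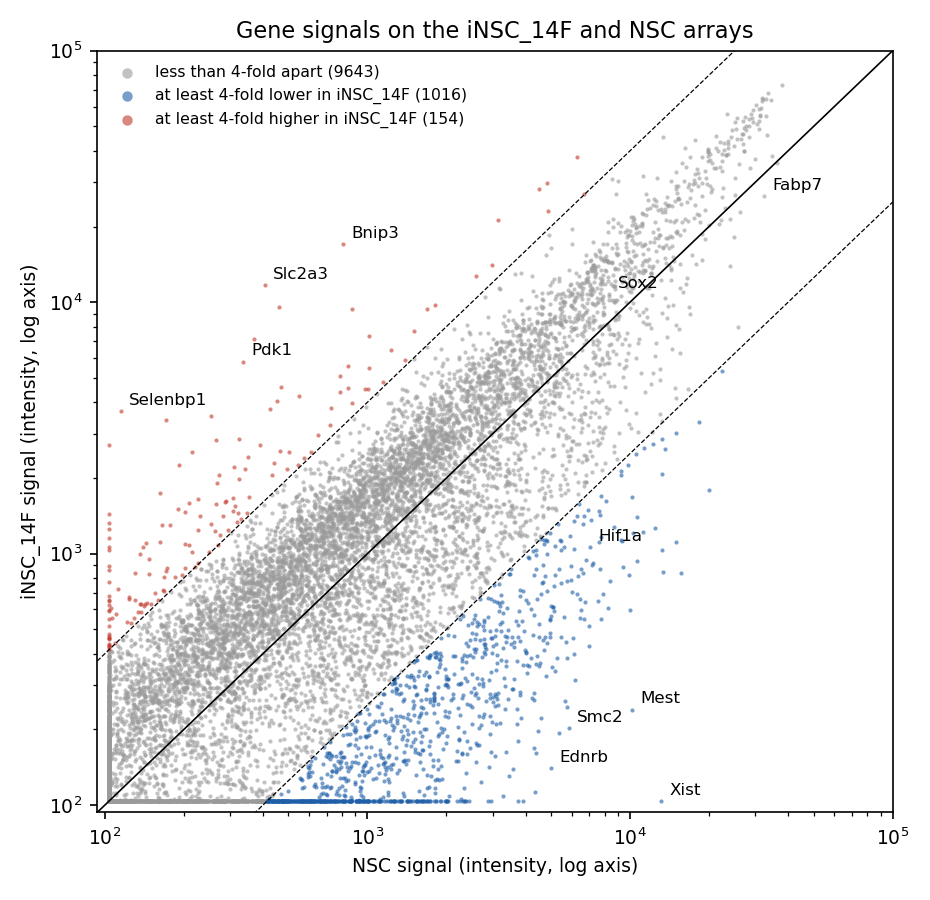
Signals of the 10813 measured genes on the NSC array (x axis) and the iNSC_14F array (y axis), both log axes with signals below the floor drawn at 103.91. The solid line marks equal signals and the dashed lines 4-fold; the 154 red genes are at least 4-fold higher and the 1016 blue genes at least 4-fold lower in iNSC_14F.

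The largest difference upwards between 2 signals above the floor was in Selenbp1, which encodes a selenium-binding methanethiol oxidase. Its signals were 115 on NSC, 3679 on iNSC_14F, 317 on iNSC_13F and 42.1 on MEF, a 31.98-fold difference in the pair, so it was bright on the iNSC_14F array alone. Cdc42ep3, an effector of the small GTPase Cdc42, stood at 171 on NSC, 3414 on iNSC_14F, 781 on iNSC_13F and 12939 on MEF, 19.9-fold higher. Igfbp5, a secreted binding protein of insulin-like growth factors, stood at 369 on NSC, 7147 on iNSC_14F, 938 on iNSC_13F and 7977 on MEF, 19.4-fold higher. For both genes the iNSC_14F signal was closer in fold to MEF than to NSC.

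Fn1, which encodes the matrix protein fibronectin, had signals of 255 on NSC, 3534 on iNSC_14F, 1954 on iNSC_13F and 39881 on MEF, 13.9-fold higher than NSC but well under MEF. Mylk, the kinase of myosin light chain, was 10.7-fold higher (266 on NSC and 2835 on iNSC_14F). Skap2, a Src family adaptor, was 9.85-fold higher (467 on NSC and 4604 on iNSC_14F). Afap1l2, an actin filament adaptor, had 163 on NSC, 1748 on iNSC_14F, 65.1 on iNSC_13F and 84.9 on MEF, and only iNSC_14F was far above the floor.

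Several of the higher genes were at or below the floor on NSC, so their folds are bounds. Tfap2a, a transcription factor of neural crest and skin, had 30.98 on NSC, 1438 on iNSC_14F, 426 on iNSC_13F and 205 on MEF, at least 13.8-fold higher. Syt13, a member of the synaptotagmin family, had 7.27 on NSC, 1031 on iNSC_14F, 396 on iNSC_13F and 115 on MEF, at least 9.92-fold higher. Scrg1 was at least 10.2-fold higher (82.6 on NSC and 1058 on iNSC_14F), and Gdpd3, a lysophospholipase D, at least 12.8-fold higher (76.5 on NSC and 1327 on iNSC_14F). All 4 were above the floor on iNSC_13F too.

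The largest bound downwards was in Xist, the RNA that silences one X chromosome in female cells. Xist had signals of 13134 on NSC, 57.98 on iNSC_14F, 3072 on iNSC_13F and 2893 on MEF, at least 126-fold lower in iNSC_14F than in NSC, and it was below the floor on iNSC_14F alone. All 3 of its probe sets were lower. The Y-linked gene Eif2s3y, a translation factor subunit, went the other way with 19.03 on NSC, 408 on iNSC_14F, 106 on iNSC_13F and 367 on MEF, at least 3.93-fold higher than NSC. Of the other Y-linked genes on the list, Kdm5d and Uty were below the floor on both arrays. The labels do not give the sex of either source. Among genes above the floor in both samples, 17.9% of the 290 on chromosome X were at least 4-fold lower, against 7.9% of all 8999. The median gene of the 290 spans 19.2 kb and that of the 8999 spans 24.1 kb.

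Mest, an imprinted gene expressed from the paternal copy, had the largest difference downwards between signals that both exceeded the floor. Its signals were 10175 on NSC, 239.5 on iNSC_14F, 10138 on iNSC_13F and 379 on MEF, 42.5-fold lower. NSC and iNSC_13F lay close together and iNSC_14F lay near MEF. Rps6ka6, a kinase of the RSK family, had 4355 on NSC, 113 on iNSC_14F, 17.4 on iNSC_13F and 54.3 on MEF, 38.6-fold lower. Ednrb, the endothelin B receptor of glia and neural crest, had 5003 on NSC, 140.2 on iNSC_14F, 87.01 on iNSC_13F and 58.9 on MEF, 35.7-fold lower, and its 3 probe sets all went this way. Kitl, the ligand of the Kit receptor, had 4325 on NSC, 169 on iNSC_14F, 262 on iNSC_13F and 167 on MEF, 25.7-fold lower. For these last 3 genes NSC stood alone and the other 3 arrays were low.

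Other lower genes were well above both induced arrays on NSC and on MEF. Bclaf1, a nuclear protein linked to RNA processing, had 4404 on NSC, 161 on iNSC_14F, 22.8 on iNSC_13F and 848 on MEF, 27.4-fold lower. Exoc5, a subunit of the exocyst that tethers secretory vesicles, had 3589 on NSC, 139 on iNSC_14F, 138 on iNSC_13F and 1618 on MEF, 25.7-fold lower. Abce1, which recycles ribosomes, had 5759 on NSC, 246 on iNSC_14F, 160.4 on iNSC_13F and 1916 on MEF, 23.4-fold lower. Tmed5, a cargo protein of the early secretory path, had 3741 on NSC, 88.2 on iNSC_14F, 89.5 on iNSC_13F and 1991 on MEF, at least 36-fold lower. The same order was seen in Esf1, a nucleolar protein, with 2867 on NSC, 57.8 on iNSC_14F, 42.04 on iNSC_13F and 838 on MEF, and in Chm, a Rab escort protein, with 2380.2 on NSC, 76.97 on iNSC_14F, 71.96 on iNSC_13F and 579 on MEF.

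Over all 1016 lower genes the median signal was 1486 on NSC, 170.5 on iNSC_14F, 140.7 on iNSC_13F and 547.5 on MEF. Over the 154 higher genes it was 218.4 on NSC, 1360 on iNSC_14F, 686.9 on iNSC_13F and 717 on MEF. The members were chosen on the pair, so these medians are a description, and the NSC and iNSC_14F signals are those the choice used. Casp8ap2, a histone gene regulator also known as FLASH, had 3280 on NSC, 109 on iNSC_14F, 183 on iNSC_13F and 513 on MEF, 30.2-fold lower. Ramp1, a partner of the calcitonin receptor family, had 3926 on NSC, 62.9 on iNSC_14F, 56.1 on iNSC_13F and 195 on MEF, at least 37.8-fold lower. Pcm1, a centriolar satellite protein, and Fam111a, a protease, were lower by at least 23.4-fold and by at least 22.7-fold. Dzip3, a ubiquitin ligase, was 26.5-fold lower (3449 on NSC and 130.3 on iNSC_14F), Hmgn5, a nucleosome-binding protein, 22.7-fold lower (4473 on NSC and 197 on iNSC_14F) and Hectd2, another ubiquitin ligase, 21.6-fold lower (2278 on NSC and 106 on iNSC_14F).

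Glucose uptake and glycolysis genes were higher in iNSC_14F. Of 15 measured glycolysis enzymes, 13 were at least 2-fold higher and none lower (7 and 0 under the hybridization scaling), against 16.9% and 19.3% of all measured genes. Their median log2 difference was 1.76 beside 0.33 for all genes, and it was 0.95 after scaling to the hybridization controls. Of 40 measured other hypoxia-inducible genes, 1 was lower and 30 were higher by 2-fold or more (20 and 4 after that scaling), and the median was 1.81, or 0.99 after it. All 40 exceeded the floor on iNSC_14F and 34 did on NSC, so 6 differences are bounds that could not come out lower. At 4-fold, 19 of these 40 and 6 of the 15 enzymes were higher, against 1.42% of all genes.

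The glucose transporters came first. Slc2a3, which encodes the high-affinity transporter GLUT3, had signals of 407 on NSC, 11655 on iNSC_14F, 479 on iNSC_13F and 1064 on MEF, 28.6-fold higher in iNSC_14F than in NSC. A second probe set of Slc2a3 read 166.6 on NSC and 5600 on iNSC_14F. Slc2a1, which encodes GLUT1, had 875 on NSC, 9385 on iNSC_14F, 2301 on iNSC_13F and 10055 on MEF, 10.7-fold higher. For GLUT3 the NSC and iNSC_13F signals lay close together and iNSC_14F stood above all other arrays, whereas for GLUT1 the MEF and iNSC_14F signals lay close together.

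The first steps of glycolysis were higher but for Pfkp. Hk1 and Hk2, the hexokinases that trap glucose, were 5.49-fold and 5.399-fold higher. Pfkl, the liver-type subunit of the committed enzyme phosphofructokinase, had 216 on NSC, 2531 on iNSC_14F, 647 on iNSC_13F and 1256 on MEF, 11.8-fold higher, and its 3 probe sets went the same way. The muscle-type subunit Pfkm was 3.08-fold higher (802 on NSC and 2475 on iNSC_14F). The platelet-type subunit Pfkp was within 2-fold (161 on NSC and 239.8 on iNSC_14F), with a log2 difference of 0.58 that turned to -0.32 under the hybridization scaling. Pfkfb3 and Pfkfb4, which make the activator fructose 2,6-bisphosphate, were 6.48-fold and 2.17-fold higher.

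The later enzymes were higher but for Ldhb and Eno2. Aldoc, the brain aldolase, had 4520.3 on NSC, 28303 on iNSC_14F, 17206 on iNSC_13F and 147 on MEF, 6.26-fold higher, and Aldoa was 3.603-fold higher. Tpi1, triose phosphate isomerase, had 6269 on NSC and 37745 on iNSC_14F, 6.02-fold higher. Gapdh was 2.501-fold, Pgk1 2.53-fold, Pgam1 4.03-fold and Pkm 2.67-fold higher. Eno3, an enolase below the floor on NSC, was at least 3.08-fold higher (84.8 on NSC and 320.4 on iNSC_14F), while the neuronal enolase Eno2 was below the floor on both arrays. Ldha, which turns pyruvate into lactate, was 3.39-fold higher (13372 on NSC and 45368 on iNSC_14F). Ldhb, the subunit that favours the reverse step, was within 2-fold (3938 on NSC and 4359 on iNSC_14F), with a log2 difference of 0.15 that was -0.75 under the hybridization scaling.

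Further members act on pyruvate, mitochondria and glycogen. Pdk1, the kinase that shuts pyruvate dehydrogenase, had 335 on NSC, 5802 on iNSC_14F, 572 on iNSC_13F and 2415 on MEF, 17.3-fold higher, and all 3 probe sets went this way. Bnip3, a receptor for the removal of mitochondria, had 809.9 on NSC, 16977 on iNSC_14F, 775 on iNSC_13F and 6216 on MEF, 20.96-fold higher. Ppp1r3c, which brings protein phosphatase 1 to glycogen, had 462 on NSC, 9611 on iNSC_14F, 694 on iNSC_13F and 18.4 on MEF, 20.8-fold higher. Gys1, glycogen synthase, was 4.95-fold higher (313 on NSC and 1547 on iNSC_14F) and Pgm1, phosphoglucomutase, 8.79-fold higher (326 on NSC and 2861 on iNSC_14F). Gbe1, the glycogen branching enzyme, was within 2-fold (308 on NSC and 304 on iNSC_14F), and so was Pgm2, another phosphoglucomutase (421 on NSC and 668 on iNSC_14F). For Bnip3 the iNSC_13F and NSC signals lay close together, while Pdk1 and Ppp1r3c were somewhat brighter on iNSC_13F than on NSC.

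Promoters are shown, with the core letters of the HIF motif, for 4 of these genes that are among the 15 largest differences upwards. Slc2a3, Slc2a1 and Egln3 are among the same 15, and their promoters are not shown. The letters searched were ACGTG and GCGTG on either strand, so a match also prints as CACGT or CACGC, and CACGTG counts as 2 overlapping matches. The window is the 300 bases from 250 before to 50 after the gene's start in RefSeq (GRCm38.p6). Matches are in capitals. Bnip3 (chr7:138909457-138909756, minus strand) held 5 matches and Ppp1r3c (chr19:36736555-36736854, minus strand) held 4. Pdk1 (chr2:71872974-71873273, plus strand) held 2 and Pfkl (chr10:78009758-78010057, minus strand) held 1.
Bnip3: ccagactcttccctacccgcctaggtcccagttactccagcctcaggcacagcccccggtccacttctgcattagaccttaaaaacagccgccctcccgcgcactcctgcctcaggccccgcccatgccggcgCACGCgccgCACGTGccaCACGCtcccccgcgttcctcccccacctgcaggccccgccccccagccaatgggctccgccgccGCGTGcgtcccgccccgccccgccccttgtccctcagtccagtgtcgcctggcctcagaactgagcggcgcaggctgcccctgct
Ppp1r3c: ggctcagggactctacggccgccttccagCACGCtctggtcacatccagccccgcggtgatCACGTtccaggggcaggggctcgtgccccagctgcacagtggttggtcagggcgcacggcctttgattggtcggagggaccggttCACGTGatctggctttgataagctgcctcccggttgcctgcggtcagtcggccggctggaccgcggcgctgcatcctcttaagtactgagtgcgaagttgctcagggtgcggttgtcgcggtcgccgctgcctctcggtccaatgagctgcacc
Pdk1: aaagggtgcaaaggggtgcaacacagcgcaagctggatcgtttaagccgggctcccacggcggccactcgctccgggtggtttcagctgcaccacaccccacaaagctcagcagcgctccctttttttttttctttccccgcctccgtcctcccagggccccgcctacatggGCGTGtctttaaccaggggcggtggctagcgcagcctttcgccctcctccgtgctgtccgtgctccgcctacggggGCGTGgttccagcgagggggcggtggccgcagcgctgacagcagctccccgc
Pfkl: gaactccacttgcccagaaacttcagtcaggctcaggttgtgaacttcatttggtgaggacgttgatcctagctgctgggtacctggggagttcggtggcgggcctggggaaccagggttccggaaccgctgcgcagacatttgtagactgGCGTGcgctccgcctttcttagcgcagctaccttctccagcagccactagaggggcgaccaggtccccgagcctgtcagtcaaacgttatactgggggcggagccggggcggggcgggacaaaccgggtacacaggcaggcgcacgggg

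The letters are common in promoters. They were found in 43.8% of the 27025 promoters of the table and in 65.1% of the 8849 promoters of measured genes. Of the 39 glycolysis and hypoxia promoters whose gene was at least 2-fold higher, 32 (82.1%) held them, and of the 11 whose gene was not, 9 (81.8%) did. They were in 67.2% of promoters of genes at least 4-fold higher and in 65.0% of those at least 4-fold lower. The share was thus near that of measured genes in both sets of 4-fold calls, and within the list it was alike for the higher members and the rest.

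Secreted and signalling members followed. Vegfa, the vessel growth factor, had 548 on NSC, 4226 on iNSC_14F, 651 on iNSC_13F and 2014 on MEF, 7.71-fold higher. Ddit4, an inhibitor of the growth kinase mTORC1, had 3137 on NSC, 21289 on iNSC_14F, 2502 on iNSC_13F and 1975 on MEF, 6.79-fold higher. Adm, the vessel-dilating peptide adrenomedullin, was 3.07-fold higher (605 on NSC and 1854 on iNSC_14F). Ankrd37, an ankyrin repeat protein, had 93.7 on NSC, 2695 on iNSC_14F, 205 on iNSC_13F and 185 on MEF, at least 25.9-fold higher, and Ndrg1 was at least 11.1-fold higher (69.99 on NSC and 1157 on iNSC_14F). Fam162a and Higd1a, proteins of the mitochondrial membrane, were 6.18-fold and 4.72-fold higher. Ier3 was 5.11-fold, Mxi1, a partner of Max that opposes Myc, 3.67-fold, and Bhlhe40, a repressor, 3.099-fold higher. Ero1a, which forms disulphide bonds, was 5.22-fold higher, and the collagen-modifying enzymes Plod1 and P4ha1 were 5.16-fold and 2.79-fold higher.

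The other 10 hypoxia list members were not called higher at 2-fold. Gbe1, Hilpda, Pgm2, Car12, Plod2, Kdm3a and Rora lay within 2-fold. P4ha2 (0.89 on NSC and 189 on iNSC_14F) and Slc16a3 (4.43 on NSC and 137 on iNSC_14F) were below the floor on NSC, which makes them higher by at least 1.82-fold and by at least 1.32-fold, bounds that do not place them. Of 4 measured Rora probe sets 1 was higher and 3 lower, and Plod2 had 1 each way. Kdm3a, a histone demethylase, had 2155 on NSC and 1097 on iNSC_14F, lower by 1.97-fold. Tfrc, the transferrin receptor that imports iron, had 6488 on NSC, 870.2 on iNSC_14F, 724 on iNSC_13F and 1381 on MEF, 7.46-fold lower. Car9 and Tmem45a were below the floor on both arrays.

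The oxygen sensors and HIF subunits were not all alike. Egln3, an oxygen-sensing prolyl hydroxylase that HIF itself induces, had 453 on NSC, 4039.7 on iNSC_14F, 289 on iNSC_13F and 992 on MEF, 8.92-fold higher. Egln1 was 2.54-fold higher (2566 on NSC and 6506 on iNSC_14F), and Vhl, which marks HIF for degradation, 2.01-fold higher (941 on NSC and 1895 on iNSC_14F). Hif1a, the subunit whose protein oxygen controls, was lower, with 7049.9 on NSC, 1063 on iNSC_14F, 698 on iNSC_13F and 5159 on MEF, 6.63-fold below NSC. Its 3 measured probe sets had log2 differences of -3.55, -2.73 and -0.01. The last of these had an NSC signal of 104.6, at the floor. Both induced arrays were low for Hif1a, and NSC and MEF were high. Over the 15 measured genes of this list 3 were at least 2-fold higher and 1 lower (1 and 1 under the hybridization scaling), and the median of 0.73 turned to -0.17 under it.

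Most genes of condensin, cohesin and other SMC proteins were lower in iNSC_14F. Condensin folds chromosomes for division and cohesin holds sister chromatids together, and both are built on a pair of SMC proteins. The list also holds regulators of cohesin and 3 SMC genes of neither complex, Smc5, Smc6 and Smchd1. Of the 22 genes, all measured, 18 were at least 2-fold lower and 1 was higher (0 and 19 under the hybridization scaling), and 17 were at least 4-fold lower, against 9.4% of all genes. The median log2 difference was -3.31, -2.22 with the median of probe sets and -3.54 with genes of like length centred together. The median gene of the list spans 51.5 kb, and 7 of the 22 differences are bounds. Without Smc5, Smc6 and Smchd1, a split made after their values were seen, 15 of 19 genes were at least 2-fold lower and 1 higher. Of these, 14 were at least 4-fold lower, 6 of the 19 are bounds, and the median was -3.18.

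Smc2, the core subunit shared by both condensins, had signals of 5836 on NSC, 203 on iNSC_14F, 104 on iNSC_13F and 1514 on MEF, 28.8-fold lower, and 4 of 4 measured probe sets were lower. Ncapg2, a subunit of condensin II, had 4573 on NSC, 223 on iNSC_14F, 109 on iNSC_13F and 644 on MEF, 20.6-fold lower. Smc5 and Smc6, partners in another SMC complex used in DNA repair, were at least 15.8-fold and 17.4-fold lower. Stag1, a cohesin subunit, had 2032 on NSC, 75.1 on iNSC_14F, 118 on iNSC_13F and 625 on MEF, at least 19.6-fold lower. Smchd1, an SMC protein of the inactive X chromosome, had 3375 on NSC, 163 on iNSC_14F, 128 on iNSC_13F and 982 on MEF, 20.8-fold lower. In each of these 6 genes NSC was brightest, MEF second and both induced arrays low.

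Not every subunit was lower. Ncaph2, Ncapd2 and Ncaph, condensin subunits named here after their values were seen, were brighter on iNSC_14F than on NSC. Their signals were 1452 on NSC and 3009 on iNSC_14F, 2511 on NSC and 3974 on iNSC_14F and 4905 on NSC and 5977 on iNSC_14F. The last 2 were within 2-fold, and their log2 differences of 0.66 and 0.28 turned to -0.24 and -0.61 under the hybridization scaling. Rad21, the ring-closing subunit of cohesin, also named after the fact, was within 2-fold (9491 on NSC and 5464 on iNSC_14F).

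**Figure D2:**
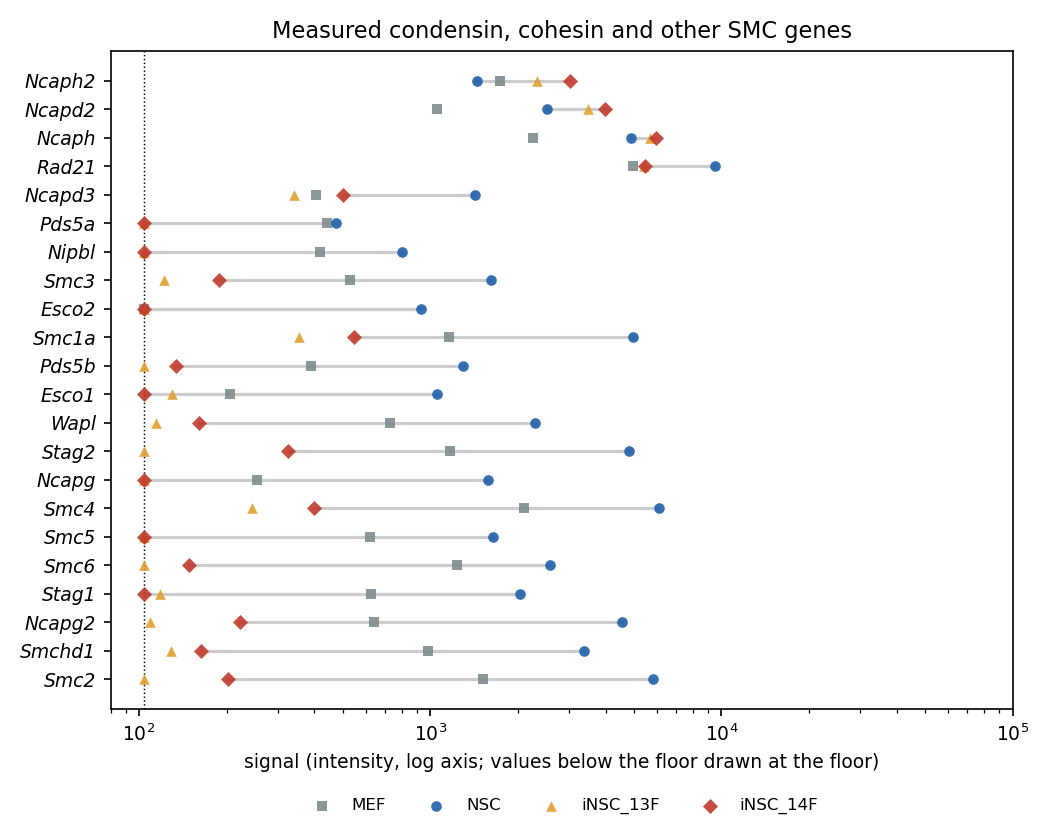
Signals on each of the 4 arrays (x axis, log scale, floor dotted at 103.91) of the 22 genes of condensin, cohesin and other SMC proteins, ordered by the difference between iNSC_14F (red) and NSC (blue). Of these, 18 are at least 2-fold lower in iNSC_14F; all 22 exceed the floor on NSC, 15 on iNSC_14F and 14 on iNSC_13F (orange).

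The mitosis list held lower genes and genes within 2-fold. Of 36 measured members, 17 were at least 2-fold lower, 13 of them at least 4-fold, 1 was higher and 18 were within 2-fold (0 higher and 24 lower under the hybridization scaling), with a median of -0.74. Bub1, a checkpoint kinase, had 3732 on NSC, 180 on iNSC_14F, 77.8 on iNSC_13F and 717 on MEF, 20.7-fold lower. Hmmr, a spindle protein, was 19.7-fold lower (3071 on NSC and 156 on iNSC_14F), Kif11, the motor that separates the spindle poles, at least 18.9-fold lower (1969 on NSC and 99.7 on iNSC_14F), and Ttk, a checkpoint kinase, 13.3-fold lower (1743 on NSC and 131 on iNSC_14F). Mki67, the gene of the proliferation antigen Ki-67, had 5776 on NSC, 385 on iNSC_14F, 179.7 on iNSC_13F and 1292 on MEF, 14.99-fold lower. Cenpf, a kinetochore protein, was 14.7-fold lower. Aurkb, the one higher member, was named after its value was seen, with 1772 on NSC and 3764 on iNSC_14F, 2.12-fold higher. Cdk1 and Ccnb2, the kinase and a cyclin that start mitosis, also named afterwards, were within 2-fold (7845 on NSC and 12359 on iNSC_14F, and 2447 on NSC and 3520.4 on iNSC_14F), and their log2 differences of 0.66 and 0.53 turned to -0.24 and -0.37 under the hybridization scaling.

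DNA replication genes had shares like those of all genes. Of 35 measured, 5 were higher and 6 lower by 2-fold or more, against 16.9% and 19.3% of all genes (0 and 10 under the hybridization scaling), and the median of 0.20 turned to -0.70 under it. Ccne2, a cyclin that starts S phase, had 2705 on NSC, 124 on iNSC_14F, 106 on iNSC_13F and 529 on MEF, 21.9-fold lower, and Pola1, a subunit of the polymerase that starts new strands, 1685 on NSC, 117 on iNSC_14F, 72.3 on iNSC_13F and 209 on MEF, 14.4-fold lower. Pold1, the catalytic subunit of polymerase delta, was 2.83-fold higher (1319.7 on NSC and 3733 on iNSC_14F) and E2f2, a cell cycle transcription factor, 2.52-fold higher (233 on NSC and 587 on iNSC_14F). Among cell cycle inhibitors and p53 targets, 5 of 20 measured genes were higher and 5 lower (2 and 8 under the hybridization scaling), with a median of 0.46 that turned to -0.52 under it. Cdkn1a, the inhibitor p21, had 4928 on NSC, 18491 on iNSC_14F, 9928 on iNSC_13F and 8133 on MEF, 3.75-fold higher, and Btg2, an antiproliferative gene, 4.55-fold higher (872 on NSC and 3971 on iNSC_14F). Ccng1, a cyclin induced by p53, had 12491 on NSC, 1259.9 on iNSC_14F, 294 on iNSC_13F and 8290 on MEF, 9.91-fold lower, and Rb1, the retinoblastoma gene, was 4.001-fold lower (1258 on NSC and 314 on iNSC_14F).

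The share of lower genes differed with the genomic length of the gene, taken from the first to the last base of the locus in GRCm38.p6. All genes with a listed length were divided by length into 5 classes of equal size. In the class of the shortest genes, up to 6.25 kb, 1.77% of measured genes were at least 4-fold lower. The share was 4.32%, 6.95%, 13.58% and 16.6% in the next 4 classes, the last of which starts at 64 kb. The share of genes at least 4-fold higher was between 1.09% and 2.32% in all 5. The median log2 difference went from 0.66 in the shortest class to -0.23 in the longest. For iNSC_13F minus NSC it went from 0.64 to -0.39, and for NSC minus MEF from -0.06 to 0.34. All 3 differences share the NSC array. The median lower gene spanned 50.2 kb, the median higher gene 22 kb and the median measured gene 24.4 kb. After the median of each length class was subtracted, an alternative chosen after the data were seen, 982 of the 1016 lower genes and 94 of the 154 higher genes were still called. What sets the length relation was not tested.

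**Figure D3:**
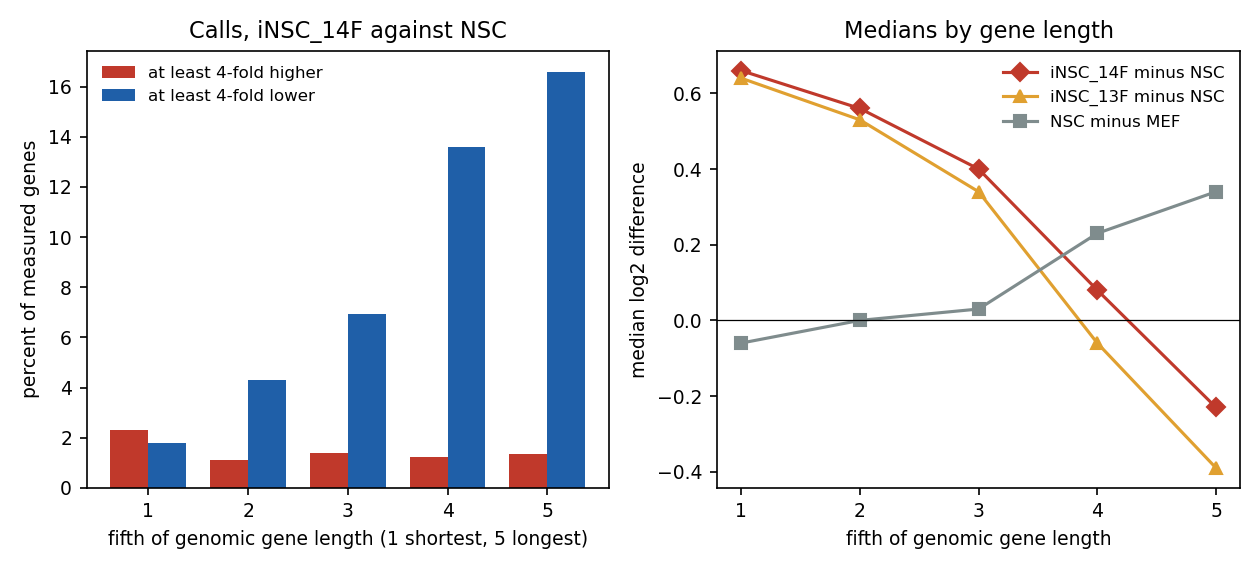
Left, percent of measured genes at least 4-fold higher (red) or lower (blue) in iNSC_14F than in NSC, by class of genomic gene length (1 shortest, 5 longest); right, the median log2 difference in each class for iNSC_14F minus NSC, iNSC_13F minus NSC and NSC minus MEF. The lower share goes from 1.77% to 16.6% while the higher share stays between 1.09% and 2.32%; all 3 lines share the NSC array.

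The neural stem cell label was checked against its markers. Of 27 measured radial glia and neural stem cell markers, 18 were within 2-fold, 5 higher in iNSC_14F and 4 lower (3 and 13 under the hybridization scaling). The 18 of 27 stand beside 63.7% of all genes within 2-fold, so this count does not set the markers apart. Their median log2 difference was -0.04, and -0.88 under that scaling. The list's summed signal was 157000 on NSC, 197600 on iNSC_14F, 184100 on iNSC_13F and 86160 on MEF. Such a sum follows its brightest probe sets. The order of NSC and iNSC_14F in it is not settled, because it reverses under the hybridization scaling. Sox2, the core factor of neural progenitors, had signals of 8337 on NSC, 10782 on iNSC_14F, 7699.6 on iNSC_13F and 68.9 on MEF. Fabp7, a lipid carrier of radial glia, had 32378 on NSC, 26405 on iNSC_14F, 21337 on iNSC_13F and 182 on MEF. Rfx4, a transcription factor of neural progenitors, had 12110.2 on NSC, 10675 on iNSC_14F, 11681 on iNSC_13F and 4.36 on MEF. Olig2, a transcription factor of oligodendrocyte progenitors, had 8598 on NSC, 6424 on iNSC_14F, 8839 on iNSC_13F and 3.89 on MEF. These 4 genes were at or below 182 on MEF, and each was within 2-fold between iNSC_14F and NSC as deposited. The hybridization scaling lowers each of these differences by 0.90. Under it Sox2 stayed within 2-fold, while Fabp7, Rfx4 and Olig2 were lower by more than 2-fold. Nr2e1 was below the floor on both arrays.

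The members that differed had other roles. Fgfr3, a receptor for FGF, had 1017 on NSC, 7307 on iNSC_14F, 2080 on iNSC_13F and 161 on MEF, 7.18-fold higher. Sox1, an early neural factor, had 525 on NSC, 93.2 on iNSC_14F, 96.8 on iNSC_13F and 25.6 on MEF, at least 5.05-fold lower and below the floor on both induced arrays. Prom1, which encodes the surface antigen CD133, had 489.7 on NSC, 39.8 on iNSC_14F, 44.04 on iNSC_13F and 104 on MEF, at least 4.71-fold lower. Ptprz1, a receptor phosphatase of radial glia, had 7682 on NSC, 2745 on iNSC_14F, 1913 on iNSC_13F and 595 on MEF, 2.799-fold lower. Egfr, the receptor for the EGF in the medium, had 2749.6 on NSC, 516 on iNSC_14F, 519.5 on iNSC_13F and 747 on MEF, 5.32-fold lower by its brightest probe set. A second bright probe set of Egfr gave a log2 difference of -1.19 and 2 dimmer ones gave 0.35 and 0.85, so its probe sets did not go the same way.

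**Figure D4:**
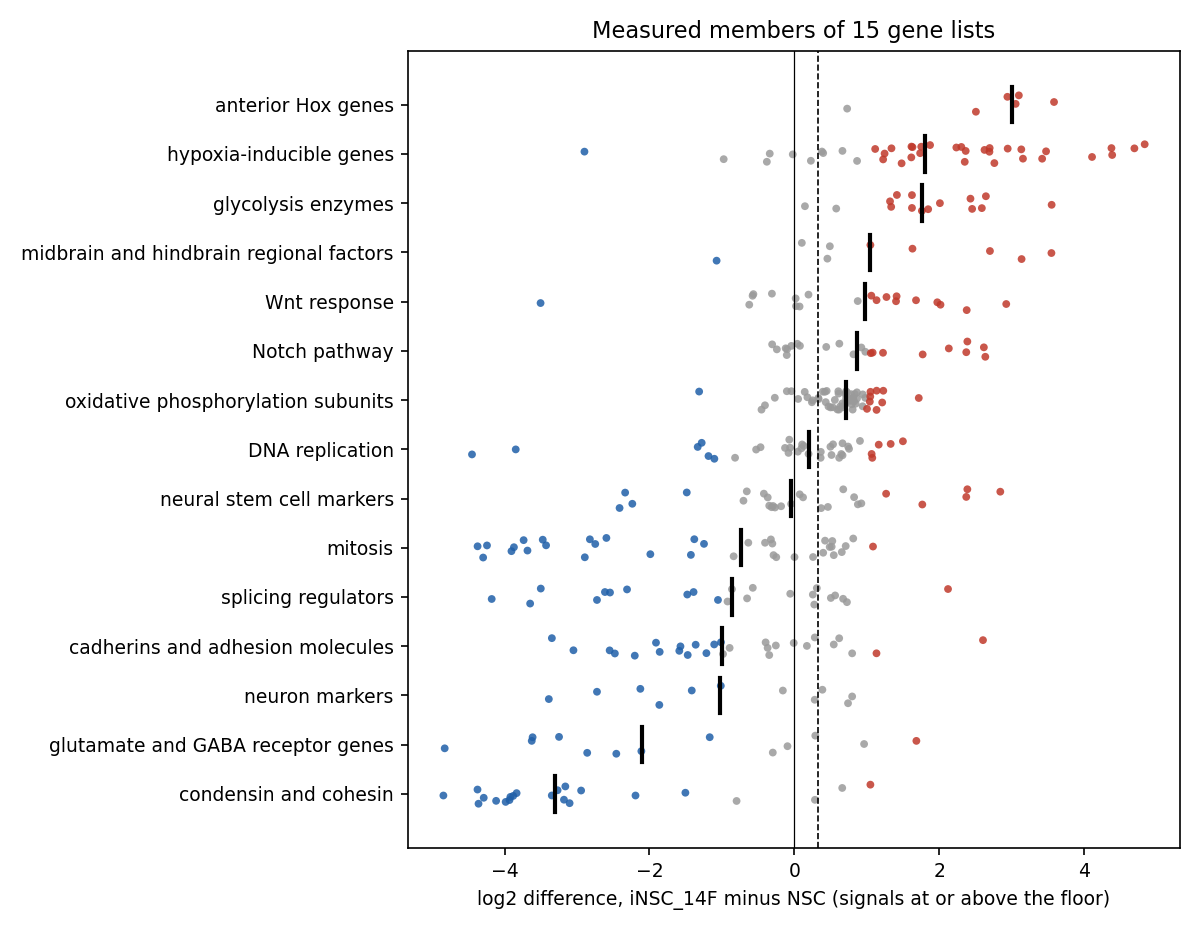
Log2 difference between iNSC_14F and NSC (x axis) of each measured member of 15 gene lists; red members are at least 2-fold higher, blue at least 2-fold lower, grey within 2-fold, and the black bar is the list's median. The dashed line is the median of all measured genes, 0.33. The medians run from 3.00 for anterior Hox genes, where 5 of 6 differences are bounds, to -3.31 for condensin, cohesin and other SMC genes, where 7 of 22 are.

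Notch pathway genes were higher or within 2-fold. Of 22 measured, 9 were at least 2-fold higher, 5 of them at least 4-fold, and none lower, against 16.9% and 19.3% of all genes (5 and 4 under the hybridization scaling). The median of 0.87 turned to -0.08 under it. The receptor Notch1 had 1232 on NSC, 6455 on iNSC_14F, 2313 on iNSC_13F and 1517 on MEF, 5.24-fold higher, and Notch3 was 4.39-fold higher (494 on NSC and 2166 on iNSC_14F). The target genes Hes5 and Hey1, which encode repressors, had 209 on NSC, 1084 on iNSC_14F, 36.6 on iNSC_13F and 1.5 on MEF and 229.9 on NSC, 1412 on iNSC_14F, 588 on iNSC_13F and 888 on MEF, 5.19-fold and 6.14-fold higher. Hes6 was 3.42-fold higher (1902 on NSC and 6503 on iNSC_14F). Numbl, an adaptor that restrains Notch, was at least 6.23-fold higher (68.3 on NSC and 647 on iNSC_14F). For Hes5 the iNSC_13F array was below the floor, so the induced arrays lay on opposite sides of NSC.

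Receptors and targets of other pathways varied. Among 20 measured Wnt response genes 10 were higher and 1 lower at 2-fold, against 16.9% and 19.3% of all genes (4 and 5 under the hybridization scaling), with a median of 0.97 that was 0.17 under it. Apcdd1, a Wnt inhibitor that Wnt induces, had 208 on NSC, 1585 on iNSC_14F, 614 on iNSC_13F and 963 on MEF, 7.604-fold higher, and Lgr5, a receptor that amplifies Wnt, 5.21-fold higher (107 on NSC and 555 on iNSC_14F). Nkd1, a feedback inhibitor, was 4.05-fold higher, and the receptor Fzd9 3.93-fold higher (1689 on NSC and 6638 on iNSC_14F). The receptor Fzd3 was the lower member, with 3153 on NSC, 278 on iNSC_14F, 234 on iNSC_13F and 233 on MEF, 11.3-fold by the probe set used. Its other measured probe sets gave log2 differences of -0.07, -0.67 and -0.2, all within 2-fold. Among 11 measured Hedgehog genes 5 were higher and 1 lower (1 and 4 under that scaling), with a median of 0.97, or 0.07 under it. The co-receptors Boc and Gas1 were 5.01-fold and 3.02-fold higher, the transcription factor Gli2 3.42-fold higher, and the co-receptor Cdon 3.15-fold lower.

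FGF and ERK genes were mostly within 2-fold or higher. Of 10 measured FGF genes 5 were higher and 1 lower, against 16.9% and 19.3% of all genes (1 and 2 under the hybridization scaling), with a median of 0.92 that was 0.02 under it. Fgfr2 was 2.297-fold and Fgfrl1, a decoy receptor, 2.95-fold higher. Of 14 measured ERK feedback genes, whose levels follow growth factor signalling, 5 were higher and 1 lower (1 and 3 under that scaling), and the median of 0.48 turned to -0.42. Etv5, a transcription factor induced by FGF, had 9128 on NSC, 19057 on iNSC_14F, 24369.8 on iNSC_13F and 973 on MEF, 2.09-fold higher, while Spred1, an inhibitor of the pathway, was 3.11-fold lower (3820.2 on NSC and 1229 on iNSC_14F). Among 18 measured BMP and TGF-beta genes 3 were higher and 6 lower (1 and 7 under that scaling), and the median of 0.29 turned to -0.28. The BMP receptors Bmpr1a, Bmpr1b and Bmpr2 were 10.98-fold, at least 9.57-fold and 10.3-fold lower, with NSC signals of 4208, 995 and 4958 against 383, 56.7 and 483 on iNSC_14F. A second measured probe set of Bmpr2 gave a log2 difference of -0.36. Tgfbr1, a TGF-beta receptor, was 6.38-fold lower (2128 on NSC and 333 on iNSC_14F).

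More anterior Hox genes were above the floor on iNSC_14F than on NSC, 6 against 1. These genes mark hindbrain and spinal levels and are largely silent in forebrain. Of 13 anterior Hox genes with a probe set 6 were measured, 5 of these were at least 4-fold higher and none was lower (5 and 0 at 2-fold under the hybridization scaling), with a median of 3.00. Only Hoxa5 was above the floor on NSC. The other 5 counted as measured through iNSC_14F alone, so the lack of lower members among them was fixed by the rule. The remaining 7 of the 13 were below the floor on both arrays. Hoxa3 had 7.36 on NSC, 1249 on iNSC_14F, 954 on iNSC_13F and 146 on MEF, at least 12.02-fold higher, and Hoxa2 14.4 on NSC, 892 on iNSC_14F, 793 on iNSC_13F and 155 on MEF, at least 8.58-fold higher. Hoxb2 (42.3 on NSC and 865 on iNSC_14F), Hoxb3 (17.5 on NSC and 591 on iNSC_14F) and Hoxa5 (143 on NSC and 1099 on iNSC_14F) were at least 8.32-fold, at least 5.69-fold and 7.69-fold higher. Hoxa4 was above the floor on iNSC_14F alone (172), with a bound of at least 1.66-fold. Of 20 posterior Hox genes with a probe set only Hoxa7 was measured (25.7 on NSC and 387 on iNSC_14F, at least 3.73-fold higher), whereas 14 of the 20 exceeded the floor on MEF and 4 on iNSC_13F.

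Other position genes differed too. Irx5 had 192 on NSC, 2256 on iNSC_14F, 2295 on iNSC_13F and 738 on MEF, 11.7-fold higher, and Irx3 426 on NSC, 3756 on iNSC_14F, 977 on iNSC_13F and 2130.3 on MEF, 8.81-fold higher. Irx2 and Irx1 were below the floor on NSC, and higher in iNSC_14F by at least 6.505-fold and by at least 3.1-fold. These homeobox genes are active in hindbrain and spinal cord, among other tissues. Of 9 measured midbrain and hindbrain factors, the Irx genes included, 5 were higher and 1, Meis2, lower (2175 on NSC and 1034 on iNSC_14F, 2.104-fold), against 16.9% and 19.3% of all genes, with a median of 1.05. The counts were 4 and 1 and the median 0.30 under the hybridization scaling. Of 10 measured forebrain factors, 1 was higher and 2 lower (1 and 5 under that scaling), with a median of -0.08. The forebrain and midbrain factors Otx2 (216 on NSC and 4.43 on iNSC_14F) and Six3 (237 on NSC and 61.1 on iNSC_14F) were above the floor on NSC alone of the pair, which makes them lower by at least 2.08-fold and by at least 2.28-fold. Nr2f2 was 4.005-fold higher (221 on NSC and 886 on iNSC_14F). Of 7 measured spinal factors 2 were higher and 2 lower (2 and 5 under that scaling), with a median of -0.36. The lower members were the dorsal factors Zic1 and Zic5, by 2.28-fold and 3.63-fold.

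Several genes of neurons and synapses were lower in iNSC_14F. Of 11 measured neuron markers, of 30 with a probe set, none was at least 2-fold higher and 6 were lower (0 and 7 under the hybridization scaling), with a median of -1.02 that was -0.20 after quantile normalization and -0.16 by the median of probe sets. Of the 11, 9 exceeded the floor on NSC, 8 on iNSC_14F and 6 on both, so 5 differences are bounds. Markers measured through NSC alone could not come out higher. Gap43, a growth cone protein, had 6725 on NSC, 641 on iNSC_14F, 1008 on iNSC_13F and 225 on MEF, 10.5-fold lower. Map2, which binds microtubules in dendrites, was 4.36-fold lower (9803 on NSC and 2246 on iNSC_14F), and Elavl4, a neuronal RNA-binding protein, 6.61-fold lower (828 on NSC and 125 on iNSC_14F). The neuron markers Dcx, Rbfox3 and Stmn2 were below the floor on both arrays.

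Of 13 measured glutamate and GABA receptor genes, 8 were at least 2-fold lower and 1 higher (1 and 9 under the hybridization scaling), with a median of -2.11 that was -0.58 by the median of probe sets. Of the 13, 11 exceeded the floor on NSC, 8 on iNSC_14F and 6 on both, so 7 differences are bounds. Members measured through NSC alone could not come out higher. The median gene of this list spans 224 kb. Grm5, a metabotropic glutamate receptor, had 4531 on NSC, 367 on iNSC_14F, 86.8 on iNSC_13F and 6.21 on MEF, 12.3-fold lower. Gria2, Gria3 and Gria4, subunits of the AMPA receptor, had NSC signals of 2952, 1432 and 1363 and iNSC_14F signals of 49.97, 151 and 188, which is at least 28.4-fold, 9.51-fold and 7.26-fold lower. Gabrg1, a GABA receptor subunit, was at least 12.2-fold lower, and Grin3a, an NMDA receptor subunit, 5.49-fold lower. MEF was near or below the floor for each of these 6 genes, and iNSC_13F was low as well.

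Adhesion and channel genes lay on both sides of NSC. Of 28 measured cadherins and adhesion molecules 14 were lower and 2 higher, against 19.3% and 16.9% of all genes (1 and 20 under the hybridization scaling), with a median of -1.0 and a median gene length of 221 kb. Chl1, a neural cell adhesion molecule, had 4752 on NSC, 467 on iNSC_14F, 241 on iNSC_13F and 57.1 on MEF, 10.2-fold lower, and Cntn1, contactin, 1664 on NSC, 201 on iNSC_14F, 66.2 on iNSC_13F and 18.8 on MEF, 8.28-fold lower. Cdh13, a cadherin without a cytoplasmic tail, was one of the 2 higher members, 6.09-fold higher (325 on NSC, 1981 on iNSC_14F, 575 on iNSC_13F and 148 on MEF). Of 15 measured ion and water channels 2 were higher and 6 lower (1 and 8 under that scaling), with a median of -0.17. Kcnd2, a fast potassium channel, was 9.48-fold lower (2398 on NSC and 253 on iNSC_14F). The higher channels, named after their values were seen, were the potassium channels Kcnk1, 3.14-fold higher (126 on NSC and 394 on iNSC_14F), and Kcnn2, at least 2.38-fold higher (40.2 on NSC and 248 on iNSC_14F). Of 30 measured axon guidance genes 7 were higher and 7 lower, near the 16.9% and 19.3% of all genes (6 and 11 under the hybridization scaling), and the median of 0.45 was -0.38 under it. Efna5, Plxnd1, Ephb3 and Draxin were at least 6.04-fold, 5.62-fold, 4.8-fold and 4.602-fold higher. Epha5, a receptor for ephrins, had 1532 on NSC and 88.5 on iNSC_14F, at least 14.7-fold lower, and Dcc, the netrin receptor, was at least 5.05-fold lower (524 on NSC and 49.8 on iNSC_14F).

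Glial lineage genes had shares near those of all genes. Of 11 measured oligodendrocyte lineage genes 7 were within 2-fold, beside 63.7% of all genes, and 1 was higher and 3 lower (0 and 5 under the hybridization scaling). The median of 0.07 turned to -0.53 under it. Olig1, a progenitor factor, had 21677 on NSC, 39828 on iNSC_14F, 34636 on iNSC_13F and 8.53 on MEF, and its log2 difference of 0.88 turned to -0.02 under it. Sox8 was 2.899-fold higher (1920.3 on NSC and 5567 on iNSC_14F). Pdgfra, the receptor of oligodendrocyte progenitors, had 589 on NSC, 5.27 on iNSC_14F, 7.52 on iNSC_13F and 223 on MEF, at least 5.67-fold lower and below the floor on both induced arrays. Lhfpl3 and Ugt8a were lower by at least 10.2-fold and by at least 7.88-fold. Of 21 measured astrocyte markers 4 were higher and 3 lower (2 and 8 under that scaling), with a median of 0.23, or -0.67 under it. Sparcl1, a secreted glial protein, had 13233 on NSC, 2082 on iNSC_14F, 2734 on iNSC_13F and 229.6 on MEF, 6.36-fold lower, Nfib, a gliogenic factor, was 5.32-fold lower (5629.9 on NSC and 1058 on iNSC_14F), and Atp1b2, a sodium pump subunit, 2.603-fold higher (857 on NSC and 2232 on iNSC_14F). Cdh19, an adhesion gene of Schwann cell precursors, was 704 on NSC and 1.2 on iNSC_14F, at least 6.77-fold lower.

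Other imprinted genes differed too. Of 17 measured imprinted genes, Mest included, 7 were at least 2-fold lower and 1 higher (1 and 10 under the hybridization scaling), with a median of -0.44. Nnat, neuronatin, had 1434 on NSC, 27.9 on iNSC_14F, 25.6 on iNSC_13F and 142 on MEF, at least 13.8-fold lower. Grb10, an adaptor that restrains insulin signalling, had 2623 on NSC, 173 on iNSC_14F, 57.9 on iNSC_13F and 16466 on MEF, 15.1-fold lower. Ube3a, a ubiquitin ligase that is imprinted in neurons, had 5351 on NSC, 193 on iNSC_14F, 185 on iNSC_13F and 1724 on MEF, 27.7-fold lower, but its other 3 measured probe sets gave log2 differences of -2.46, -1.67 and -0.71. Impact was 4.46-fold lower (1297 on NSC and 291 on iNSC_14F), although 1 of its 2 measured probe sets was higher. Igf2r, which clears IGF2, was the higher member, with 575 on NSC, 2406 on iNSC_14F, 1547 on iNSC_13F and 4759 on MEF, 4.18-fold. For Grb10 and Impact both induced arrays were low and NSC and MEF were higher, whereas for Mest iNSC_13F lay beside NSC.

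Nucleolar and chaperone genes followed. Of 26 measured ribosome assembly genes 10 were lower, 7 of them at least 4-fold, and 5 higher, against 19.3% and 16.9% of all genes at 2-fold (0 and 13 under the hybridization scaling). The median of 0.01 was -0.89 under it. Nop58, a core protein of box C/D particles, had 5664 on NSC, 259.9 on iNSC_14F, 337 on iNSC_13F and 2086 on MEF, 21.8-fold lower. Dkc1, dyskerin of the box H/ACA particles, had 6976 on NSC, 515 on iNSC_14F, 695 on iNSC_13F and 1144 on MEF, 13.5-fold lower, and all 3 probe sets went this way. Ncl, nucleolin, was 5.46-fold lower (18305 on NSC and 3352 on iNSC_14F), and Ddx21 and Utp20 5.21-fold and 5.02-fold lower. Among 15 measured chaperones 3 were lower and 2 higher, near the shares of all genes (1 and 5 under that scaling), with a median of 0.34 that was -0.31 under it. Hsp90aa1, the inducible HSP90, had 19960.2 on NSC, 1784 on iNSC_14F, 1315 on iNSC_13F and 16860.2 on MEF, 11.2-fold lower, and 3 of 3 measured probe sets were lower. Hsp90b1, its counterpart in the endoplasmic reticulum, was 7.62-fold lower (10652 on NSC and 1397 on iNSC_14F). Hspa1b, an inducible HSP70, was 5.42-fold higher (202 on NSC and 1094 on iNSC_14F).

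RNA-processing and chromatin regulators differed from list to list. Of 23 measured splicing regulators 10 were lower and 1 higher, against 19.3% and 16.9% of all genes (1 and 14 under the hybridization scaling), with a median of -0.86 and a median gene length of 77.5 kb. Mbnl1, a muscleblind splicing factor, had 4491 on NSC, 358 on iNSC_14F, 336 on iNSC_13F and 6034 on MEF, 12.5-fold lower. Mbnl2 was 6.13-fold lower (1493 on NSC and 244 on iNSC_14F) with 3 of 4 probe sets lower, Ptbp3 11.3-fold lower (1999 on NSC and 176 on iNSC_14F) and Elavl2 at least 18.1-fold lower (1883 on NSC and 64.98 on iNSC_14F). Of 29 measured DNA and histone methylation enzymes 10 were lower and 4 higher (0 and 12 under that scaling), with a median of 0.24 beside 0.33 for all genes, or -0.66 under it. Suz12, a core subunit of Polycomb repressive complex 2, had 3431 on NSC, 495 on iNSC_14F, 294 on iNSC_13F and 1379 on MEF, 6.93-fold lower. All 6 of its probe sets were lower, with log2 differences between -0.45 and -3.36. Kdm6a, an X-linked demethylase of the Polycomb mark, was at least 12.9-fold lower (1341 on NSC and 87.4 on iNSC_14F), Kdm5a 7.01-fold lower (959 on NSC and 137 on iNSC_14F) and Tet1, which oxidises methylcytosine, 4.46-fold lower (886 on NSC and 199 on iNSC_14F).

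Genes of respiration and the ribosome had small differences whose direction depended on the scaling. Of 60 measured subunits of oxidative phosphorylation 9 were at least 2-fold higher and 1 lower, against 16.9% and 19.3% of all genes (0 and 5 under the hybridization scaling). Their median of 0.71 was 0.24 after quantile normalization and -0.19 under that scaling. Ndufv3 was 3.29-fold higher (4992 on NSC and 16433 on iNSC_14F) and Ndufs1 2.49-fold lower (3525 on NSC and 1417 on iNSC_14F). Of 37 measured cytoplasmic ribosomal proteins 7 were higher and none lower (0 and 1 under that scaling), and their median of 0.85 was 0.07 after quantile normalization and -0.04 under it. The 17 measured housekeeping genes had medians of 0.83, 0.10 and -0.07 in the same order. Of 20 measured cholesterol synthesis genes 1, Dhcr7, was 2.13-fold higher and 1, Idi1, 6.07-fold lower (10214 on NSC and 1684 on iNSC_14F), or 0 and 4 under that scaling. Ppargc1a, the coactivator of mitochondrial growth, was 4.02-fold lower (937 on NSC and 233 on iNSC_14F). Of its probe sets 5 of 5 were lower, with log2 differences between -0.85 and -2.91.

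Most fibroblast markers were well below MEF on both arrays. Probe sets covered 35 fibroblast and mesenchyme markers, of which 29 were at least 4-fold below MEF on NSC and on iNSC_14F. For this count alone, signals below the floor were not set to it. Of the 35, 34 exceeded the floor on MEF, 13 on NSC and 15 on iNSC_14F, and the summed signal was 503900 on MEF, 27880 on NSC and 41340 on iNSC_14F. The order of NSC and iNSC_14F in this sum reverses under the hybridization scaling. The collagen gene Col1a2 had 37.5 on NSC, 115 on iNSC_14F, 116 on iNSC_13F and 51598 on MEF. Col1a1, Col3a1, Postn and Pdgfrb were below the floor on both arrays of the pair. Of the 18 measured markers 7 were at least 2-fold higher in iNSC_14F and 4 lower (2 and 6 under the hybridization scaling), with a median of 0.57 that was 0.27 under it. Fbln2, a matrix protein, had 6030.3 on NSC, 19533 on iNSC_14F, 15275 on iNSC_13F and 19623 on MEF, 3.24-fold higher and near the MEF signal. Prrx1, a mesenchymal transcription factor, was at least 4.22-fold lower (438 on NSC and 87.2 on iNSC_14F), as were Zeb2 (at least 5.74-fold) and Zeb1 (3.198-fold), whose NSC signals of 596 and 10083 exceeded 581 and 1105 on MEF. The part of fibroblast-like cells in these values was not tested, and fewer cells of a type and less RNA per cell cannot be told apart in such samples.

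Matrix genes and their receptors went both ways. Of 12 measured collagens 3 were higher and none lower, against 16.9% and 19.3% of all genes (2 and 4 under the hybridization scaling), and the median of 0.64 was -0.15 under it. Of 18 measured integrins and laminins 8 were higher and 6 lower (5 and 7 under that scaling), and the median of 0.81 was -0.27. Col4a1 and Col4a2, the chains of basement membrane collagen, had 310.1 on NSC, 2221 on iNSC_14F, 1987 on iNSC_13F and 18982 on MEF and 123 on NSC, 659.5 on iNSC_14F, 635 on iNSC_13F and 7787 on MEF, 7.16-fold and 5.34-fold higher. Lama5 and Lamb1, laminin chains, were 4.09-fold and 3.86-fold higher, and Col18a1 3.13-fold higher. Lama4, another laminin chain, was at least 4.53-fold lower (470.3 on NSC and 6.68 on iNSC_14F). Col4a5, another basement membrane collagen chain, was within 2-fold (599 on NSC and 1033 on iNSC_14F), and its log2 difference of 0.79 was -0.11 under that scaling. The integrin subunits Itgb1 and Itgb8 were lower, 5.604-fold (3398 on NSC and 606 on iNSC_14F) and 15.1-fold (5175 on NSC and 343 on iNSC_14F). Tnc, tenascin C, was 3.405-fold higher (3851 on NSC and 13114 on iNSC_14F) although 1 of its 2 probe sets was lower, and Vcan, the proteoglycan versican, 9.04-fold lower (2032 on NSC and 225 on iNSC_14F).

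Markers of the series' starting lineages and of other cells were mostly under the floor. Of 23 hepatocyte markers with a probe set 2 were measured, each above the floor on 1 array of the pair. Apoa2 (125 on NSC and 97.4 on iNSC_14F) was lower by at least 1.21-fold and Rbp4 (71 on NSC and 167 on iNSC_14F) higher by at least 1.604-fold, bounds that do not place either within 2-fold. Alb, Afp, Ttr and Apoa1 were at or below 37.9 on both arrays. Of 18 B lymphocyte and blood markers 5 were measured, of which 1, Ebf1, was at least 2-fold lower (549 on NSC and 183 on iNSC_14F), while Cd79a, Cd79b and Ptprc were at or below 30.02. Cd74 (70.4 on NSC and 115.8 on iNSC_14F), Ikzf1 (63.4 and 120.3) and Laptm5 (26.6 and 154.7) exceeded the floor on iNSC_14F alone of the pair. Their differences upwards are bounds under 2-fold, and Ighm was within 2-fold (153.6 on NSC and 162.9 on iNSC_14F). Of 17 pluripotency markers 3 were measured, 2 of them at least 2-fold higher and none lower (2 and 0 under the hybridization scaling), with a median of 1.23. By the median of probe sets that median was 0 and 1 marker was at least 2-fold higher. Fgf4 (64.7 on NSC and 244 on iNSC_14F) and Esrrb (64.1 on NSC and 133 on iNSC_14F) were below the floor on NSC, which makes Fgf4 higher by at least 2.35-fold and Esrrb by at least 1.28-fold, and Klf4, 3.93-fold higher, is described next. Fgf4 and Esrrb counted as measured through iNSC_14F alone, so they could not come out lower. Each was measured by 1 probe set, of 4 for Fgf4 and 3 for Esrrb. Of 12 endothelial markers 1 was measured and of 12 microglial markers 1, Eng (96.1 on NSC and 239 on iNSC_14F) and Csf1r (80.9 on NSC and 194 on iNSC_14F).

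From the study's publication, 8 genes are known as reprogramming factors. Which of them were among the 14 is not given in the labels, and whether a probe set also reads an introduced copy was not tested. Klf4, a zinc finger factor, had 435 on NSC, 1706 on iNSC_14F, 2264 on iNSC_13F and 4472 on MEF, 3.93-fold higher, and Notch1 was given above. Hes1 and Myc were within 2-fold (961 on NSC and 1825 on iNSC_14F, and 2572 on NSC and 4049 on iNSC_14F), and under the hybridization scaling their log2 differences of 0.93 and 0.66 were 0.03 and -0.24. Pou3f2 was below the floor on NSC and reached 146 on iNSC_14F, with a bound of at least 1.41-fold. Rfx4 was within 2-fold. Plagl1, an imprinted zinc finger gene, had 662 on NSC, 196 on iNSC_14F, 498 on iNSC_13F and 5120.4 on MEF, 3.38-fold lower. Hes3 was below the floor on both arrays.

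Probe sets of one gene mostly went the same way. Of the higher genes with several measured probe sets, 70 of 70 had all of them higher, and of the lower genes 615 of 654 had all of them lower. The sizes differed more. A probe set at the floor on both arrays counts as 0 in the median of probe sets, and by that median 90 of the 154 higher genes and 508 of the 1016 lower genes were still 4-fold apart.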

How the data were processed

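Total RNA of 4 mouse cell samples was measured on 1-colour Affymetrix Mouse Genome arrays, and the cell type labels gave the groups, with 1 array each. The deposited values are intensities, 1 linear signal per probe set; per the submitters' processing notes they were made with MAS5, with its version not given in the sources used here. All 4 deposited arrays shared a trimmed mean of 500, so no scaling was applied, and detection calls were not used here. Signals below the floor of 103.91 were set to it, log2 values were taken, and iNSC_14F minus NSC was computed per gene from the probe set with the highest mean log2 signal over the 4 arrays. Of 45101 probe sets, 932 pair with several genes and 9211, controls included, with none, and neither kind was named; 34754 of the 34958 others matched a RefSeq gene table (GRCm38.p6) by ID. Calls needed a 4-fold difference with the brighter array above the floor, and list members were counted at 2-fold. No test was run because 1 array a group leaves no residual degrees of freedom, and precision rests on signal over background.

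Named genes were the 15 largest differences each way between signals that both exceeded the floor, the 8 largest bounds each way, up to 6 members of each of 61 lists, all members of the glycolysis, hypoxia and factor lists, and the markers used to check the labels; others are marked as named after their values were seen or belong to those checks. Genes without an established symbol, 3 of the higher and 23 of the lower genes, were not named. The members and lists were chosen with earlier results of these data known. Alternatives were quantile normalization, hybridization control scaling, lowess (span 0.3), floors at the 75th and 99th percentile or from the pair, a pseudocount of 16 without a floor, genes exceeding the floor in both samples, the median of probe sets, probe sets without the suffixes _s_at and _x_at and, added after the data were seen, centring within 5 classes of gene length. The calculation was tested on simulated data. Python 3.11.15, numpy 2.4.6, pandas 2.3.3, scipy 1.17.1, statsmodels 0.14.6 and matplotlib 3.10.9 were used.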

Additional observations from a re-analysis of the deposited data

How the results depend on the processing

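The count of genes at least 4-fold higher, 154, was 41 when arrays were scaled to the hybridization controls, 91 after lowess, 243 with a floor at the 75th percentile, 257 with a pseudocount of 16 and no floor, 91 with the median of probe sets and 100 after centring within 5 classes of gene length. The count of genes at least 4-fold lower, 1016, was 1967 under the hybridization control scaling and 529 with the median of probe sets. Under the other alternatives the higher count was between 113 and 197 and the lower count between 711 and 1288. The median log2 difference of all genes, 0.327, was -0.477 under the hybridization control scaling and -0.052 after the length centring, and between 0.044 and 0.396 under the others. The percent of 4-fold calls that were higher, 13.2, was 2.0 under the hybridization control scaling and between 6.6 and 17.5 under the others. Of 181 named genes at least 4-fold apart, 36 were under 4-fold with the hybridization control scaling, 19 after the length centring, 11 after quantile normalization and 10 after lowess, and 0 reversed in these 4. Of 9 lists with at least 3 measured members and a median 1 or more from 0, 0 reversed in any alternative run, but several fell under 1 in size. By the median of probe sets, pluripotency markers had 0, neuron markers -0.16, adhesion molecules -0.43 and glutamate and GABA receptor genes -0.58. By it anterior Hox genes kept 2.23 and the condensin and cohesin list -2.22. Under the hybridization control scaling, midbrain and hindbrain factors had 0.30, glycolysis enzymes 0.95 and other hypoxia-inducible genes 0.99. No paired analysis was possible because each group has 1 array and the labels carry no replicate numbers. With 1 array a group no array could be left out. Signals near the floor limit the dim genes: 1814 of the 10813 differences are bounds.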
